A study of Mus musculus with 15 samples.

Results

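Transcripts of 9 myeloid lineage transcription factors, Spi1, Irf8, Maf, Cebpa, Cebpb, Runx1, Mef2a, Mef2c and Mitf, were followed through bulk RNA sequencing of BV2 cells, an immortalized mouse microglial line grown as a macrophage model. The factors were picked by gene symbol, and all 9 were found among the 54390 genes of the count tables and among the 14237 genes with enough counts to be tested. The libraries fell into 4 groups: wild-type (WT) cells without treatment (non-foamy, n = 4), WT cells given soluble cholesterol at 20 µg/mL overnight (foamy, n = 4), Trem2-/- cells without treatment (non-foamy, n = 3) and Trem2-/- cells given the same cholesterol (foamy, n = 4). The Trem2-/- cells came from a BV2 clone carrying Cas9 that received a guide against Trem2, a receptor for lipids on macrophages, and were again grown up from single cells, so a difference between genotypes cannot be told apart from a difference between clones. Whether the WT cells carried Cas9, and how many knockout clones were sequenced, is not given in the sources used here. Nothing in the labels says that libraries of a group came from separate cultures, and the p-values then measure only the spread between these libraries.

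Spi1 encodes PU.1, the ETS family factor without which macrophages do not form, and PU.1 opens much of the enhancer landscape of these cells. It works with IRF8, which partners PU.1 on composite sites and sustains microglia, with the C/EBP proteins and RUNX1, which act early in myeloid commitment, and with c-MAF, encoded by Maf, which shapes mature tissue macrophages and restrains their proliferation. MEF2A and MEF2C are MADS box factors found at microglial enhancers. MITF belongs, with TFEB, TFE3 and TFEC, to the basic helix-loop-helix family that switches on lysosomal genes and, in osteoclasts, the genes of bone resorption.

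The libraries held between 23538963 and 41683825 counts assigned to genes, and the 9 factors had between 125 and 7146 counts in a library. Levels are given as CPM, counts scaled to a common library size after normalization of library composition by TMM. Trem2 itself was at 354 ± 41.2 CPM in WT non-foamy cells (SD, n = 4), 373 ± 26.4 in WT foamy cells (SD, n = 4), 222 ± 8.79 in Trem2-/- non-foamy cells (SD, n = 3) and 224 ± 4.56 in Trem2-/- foamy cells (SD, n = 4). The genotypes did not overlap, and Trem2 RNA was lower but still present in the cells labelled Trem2-/-. Counts over a whole gene do not show whether its frame is intact. The study reported the loss of Trem2 protein in its knockout BV2 cells by flow cytometry, which RNA counts do not measure. The 13 macrophage and microglia markers summed to 6550 to 8400 CPM in the WT libraries and 10900 to 12000 CPM in the Trem2-/- libraries. Lyz2 made up the largest part, at 3250 CPM on average in WT and 6320 CPM in Trem2-/- non-foamy cells. At an adjusted p under 0.05 in edgeR, 8 of the 13 were higher and 3 lower in Trem2-/- non-foamy cells (21% and 22.6% of all genes tested). In foamy cells 8 were higher and 2 lower (14.3% and 15.9% of all genes). P2ry12, Tmem119 and Cx3cr1, which define resting microglia, were at low levels throughout. P2ry12 was at 1.74 CPM in WT non-foamy cells and 0.598 CPM in Trem2-/- non-foamy cells, on average. The 4 fibroblast markers were at 0 in every library, the lymphoid markers summed to at most 0.127 CPM, the melanocyte markers to at most 0.792 CPM, the dendritic cell markers to at most 1.94 CPM, the neuron and glia markers to at most 2.57 CPM and the granulocyte markers to at most 10.6 CPM. The erythroid and megakaryocyte markers summed to 112 to 154 CPM in WT and 163 to 197 CPM in Trem2-/- libraries, nearly all of it Pf4, a platelet chemokine gene (125 and 126 CPM on average in WT non-foamy and foamy, 167 and 186 CPM in Trem2-/- cells), with Hbb-bs at 0 in every library. The part of these markers in the results was not tested. In bulk RNA, fewer cells that express a gene and less RNA per cell cannot be told apart.

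Windows of 250 bases immediately before the RefSeq gene start (GRCm38.p6) are shown for Irf8, Mef2a, Mef2c and Mitf, each read 5′ to 3′ on the strand of the gene, because the levels of these factors separated Trem2-/- from WT non-foamy cells. Spi1 and Maf had no entry. Irf8, Mef2c and Mitf had further windows before other starts, whose matches differ and which are not shown. The first window of each gene is shown, and which start these cells use was not tested. The Irf8 window lies at chr8:120736108-120736357 on the plus strand, the Mef2a window at chr7:67372859-67373108 on the minus strand, the Mef2c window at chr13:83503784-83504033 on the plus strand and the Mitf window at chr6:97806808-97807057 on the plus strand. Capitals mark a TATA box in Irf8, 2 PU.1 cores in Mef2a, a PU.1 core and a TATA box on the opposite strand in Mef2c, and a C/EBP site and a RUNX site in Mitf.
Irf8: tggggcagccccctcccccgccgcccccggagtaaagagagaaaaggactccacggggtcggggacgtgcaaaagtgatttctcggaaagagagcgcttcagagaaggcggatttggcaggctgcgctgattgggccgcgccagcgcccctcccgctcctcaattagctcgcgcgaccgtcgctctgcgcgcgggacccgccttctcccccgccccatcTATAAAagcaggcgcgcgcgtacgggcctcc
Mef2a: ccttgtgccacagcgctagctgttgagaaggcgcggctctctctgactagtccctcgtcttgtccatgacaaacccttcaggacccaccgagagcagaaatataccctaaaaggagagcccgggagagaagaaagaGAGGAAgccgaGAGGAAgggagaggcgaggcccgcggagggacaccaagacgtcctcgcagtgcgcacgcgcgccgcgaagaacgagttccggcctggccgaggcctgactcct
Mef2c: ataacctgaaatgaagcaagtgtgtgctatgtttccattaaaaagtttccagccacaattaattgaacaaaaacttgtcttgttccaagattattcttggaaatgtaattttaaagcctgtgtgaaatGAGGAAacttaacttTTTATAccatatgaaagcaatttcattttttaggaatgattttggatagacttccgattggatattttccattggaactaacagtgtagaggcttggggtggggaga
Mitf: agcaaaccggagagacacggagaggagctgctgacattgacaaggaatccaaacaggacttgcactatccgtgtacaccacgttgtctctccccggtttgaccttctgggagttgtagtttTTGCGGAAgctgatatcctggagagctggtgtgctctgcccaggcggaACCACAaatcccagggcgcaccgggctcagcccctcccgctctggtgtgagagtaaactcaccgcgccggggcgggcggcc
The letters searched, on both strands, were GAGGAAGT for a PU.1 box, GAGGAA for its core, TATAAA for a TATA box, TTGCNNAA for a C/EBP site, TGTGGT or TGCGGT for a RUNX site, and CACGTG or CACATG for an E-box. An interferon response element and a MEF2 site were searched as well and had no match in the windows shown. The PU.1 box contains the core. Of 32851 mouse promoter windows of the same length, 23.3% held a PU.1 core, 12.4% a TATA box, 9.56% a C/EBP site and 18.6% a RUNX site, so each of these matches is common. The Mef2c window had 33.6% G and C, against 67.2% in the Irf8 window, 61.6% in the Mef2a window and 59.6% in the Mitf window. A match is a description of letters and was not tested as a binding site.

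Per kilobase of exon, which allows different genes to be compared, Spi1 RNA was the most abundant of the 9 in every group, with mean levels of 34.6 and 36 CPM per kilobase in WT non-foamy and foamy cells and 36.5 and 37.4 in the corresponding Trem2-/- cells. Irf8 came next at 13.2, 15.3, 19.4 and 18.3 CPM per kilobase in the same order, and its libraries did not overlap those of Spi1 or of the gene that followed in any group. Runx1 was the lowest at 1.33, 1.32, 1.29 and 1.22 CPM per kilobase, again with no overlap with its neighbour. In WT non-foamy cells the middle of the order ran from Mef2c (9.51) through Cebpa (7.16) to Maf (5.33), Cebpb (4.82), Mef2a (3.5) and Mitf (3.44), and the last 4 overlapped with their neighbours. In Trem2-/- non-foamy cells Maf (7.66) and Cebpa (7.6) overlapped and stood above Mef2c (6.16), which in turn overlapped with Cebpb (5.83) and Cebpb with Mitf (5.43). The lengths used here are of all exons annotated for each gene, so the order depends on which isoforms the cells use.

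Expression of 5 of the 9 factors differed between Trem2-/- and WT non-foamy cells: Irf8, Maf, Mitf and Mef2a RNA was higher and Mef2c RNA was lower. All 5 showed no overlap between the libraries of the genotypes. Among all genes tested, 43.6% passed the same threshold, an adjusted p of 0.05 in the quasi-likelihood test of edgeR, and 46.1% did not overlap. The 5 of 9 is therefore close to the background of this comparison, and the genotypes differed across much of the transcriptome. The median log2 fold change of the 9 was 0.19, against 0.02 for all genes tested.

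Spi1, on chromosome 2 from 91082390 to 91115756 on the plus strand (GRCm38), did not differ between genotypes. Its levels were 87.3, 101, 92.2 and 92.5 CPM in WT non-foamy, 94.5, 98, 98.9 and 96.3 in WT foamy, 96.6, 95.2 and 103 in Trem2-/- non-foamy and 103, 108, 99.1 and 93.3 in Trem2-/- foamy libraries. All 4 groups overlapped. The log2 difference of Trem2-/- from WT non-foamy cells was 0.07, with a 95% interval of -0.07 to 0.22 and an adjusted p of 0.379 in edgeR, and in foamy cells it was 0.06, with an interval of -0.07 to 0.19 and an adjusted p of 0.501.

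Irf8 (chromosome 8, 120736358 to 120756694, plus strand), with a promoter window printed above, was higher in Trem2-/- cells. It measured 93.7, 92.8, 87.1 and 100 CPM in WT non-foamy libraries and 132, 140 and 139 CPM in Trem2-/- non-foamy libraries. Every Trem2-/- non-foamy library lay above every WT non-foamy library. The fitted change was 0.55 ± 0.0743 (log2, SE), or 1.46-fold, with an adjusted p of 2.55e-06 in edgeR. In foamy cells the levels were 119, 107, 106 and 100 CPM in WT and 138, 136, 130 and 113 CPM in Trem2-/- libraries. Here the lowest Trem2-/- library fell below the highest WT library, and the fitted change was 0.26 ± 0.069 (log2, SE) with an adjusted p of 0.0065 in edgeR. Scaling by total counts alone, which moved the median of all genes in this comparison to -0.13, gave 0.13 and an adjusted p of 0.301 for the foamy comparison in edgeR.

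Maf (chromosome 8, 115682942 to 115707794, minus strand) rose in Trem2-/- cells with and without cholesterol. Its levels were 43.1, 44.1, 42.5 and 46 CPM in WT non-foamy and 59.4, 67.7 and 62.2 CPM in Trem2-/- non-foamy libraries. In foamy cells they were 50.4, 49.6, 48.1 and 47.8 CPM in WT and 60.9, 63.7, 60.5 and 62.5 CPM in Trem2-/- libraries. The genotypes did not overlap in either condition. The changes were 0.52 ± 0.061 (log2, SE; adjusted p 3.35e-07 in edgeR) in non-foamy and 0.34 ± 0.0566 (log2, SE; adjusted p 8.95e-05 in edgeR) in foamy cells. An antisense transcript on the opposite strand overlaps 5.34% of the exonic bases of Maf, and without a stated strand setting its reads cannot be told apart.

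Mitf (chromosome 6, 97807052 to 98021349, plus strand) had the largest rise among the 9 in non-foamy cells. It was at 21.8, 23.1, 17.9 and 22.5 CPM in WT non-foamy and 35.3, 34.6 and 31 CPM in Trem2-/- non-foamy libraries. In foamy cells it was at 26.4, 24.6, 27.5 and 23.8 CPM in WT and 31.9, 29.6, 30.2 and 34.6 CPM in Trem2-/- libraries. No library of WT cells reached the lowest of the Trem2-/- libraries in either condition. The difference was 0.65 ± 0.0917 (log2, SE; 1.57-fold; adjusted p 4.12e-06 in edgeR) in non-foamy and 0.30 ± 0.0849 (log2, SE; adjusted p 0.00923 in edgeR) in foamy cells. With scaling by total counts alone the foamy difference was 0.17 with an adjusted p of 0.191 in edgeR.

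Mef2c (chromosome 13, 83504034 to 83667080, plus strand), a factor of microglial enhancers, fell in Trem2-/- cells. It measured 151, 151, 137 and 159 CPM in WT non-foamy and 88.2, 100 and 102 CPM in Trem2-/- non-foamy libraries. With cholesterol it measured 147, 148, 145 and 140 CPM in WT and 102, 96.8, 93.1 and 104 CPM in Trem2-/- libraries. The genotypes were separated by a gap in both conditions, and none of the other 8 factors was lower in Trem2-/- cells at the threshold of the test in either condition. The log2 fold change was -0.63 ± 0.069 (SE; adjusted p 1.37e-07 in edgeR) in non-foamy and -0.55 ± 0.0632 (SE; adjusted p 7.54e-07 in edgeR) in foamy cells, the former a level 1.54-fold lower.

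Mef2a (chromosome 7, 67231163 to 67372858, minus strand), the close relative of Mef2c, was slightly higher in Trem2-/- than in WT non-foamy cells. It was at 51.8, 53.3, 45.9 and 54.3 CPM in WT non-foamy and 55.4, 61.1 and 59.3 CPM in Trem2-/- non-foamy libraries. The groups did not overlap, and the change was 0.19 ± 0.0672 (log2, SE) with an adjusted p of 0.0263 in edgeR. The call did not hold with scaling by total counts alone (0.05, adjusted p 0.704 in edgeR) or without WT non-foamy replicate 3, Trem2-/- non-foamy replicate 2 or Trem2-/- non-foamy replicate 3, and without single libraries the adjusted p reached at most 0.123. In foamy cells Mef2a was at 57.5, 57.5, 57.1 and 52.9 CPM in WT and 52.7, 49.5, 48.7 and 52 CPM in Trem2-/- libraries. The Trem2-/- libraries were all the lower ones here, by a narrow margin, and the log2 difference was -0.15 with an interval of -0.29 to -0.01 and an adjusted p of 0.0744 in edgeR.

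Cebpa, Cebpb and Runx1 did not pass the test in any of the comparisons between genotypes. Cebpa (chromosome 7, 35119293 to 35121928, plus strand) ranged from 15.9 to 23 CPM over all libraries, and its log2 differences were 0.08 (interval -0.16 to 0.33) in non-foamy and 0.01 (interval -0.22 to 0.24) in foamy cells. Runx1 (chromosome 16, 92601466 to 92826149, minus strand) ranged from 13.4 to 18.3 CPM, with differences of -0.05 (interval -0.28 to 0.18) and -0.11 (interval -0.32 to 0.11). Cebpb (chromosome 2, 167688915 to 167690418, plus strand) was the least precisely measured. It ranged from 5.5 to 8.63 CPM in WT non-foamy, 5.28 to 7.32 in WT foamy, 7.86 to 9.46 in Trem2-/- non-foamy and 5.42 to 9.66 in Trem2-/- foamy libraries, and its differences were 0.27 (interval -0.13 to 0.67) and 0.33 (interval -0.05 to 0.7). The intervals of Cebpb still hold changes as large as those of Maf in non-foamy cells. The Tmem189 gene on the opposite strand overlaps 20.7% of the exonic bases of Cebpb.

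**Figure D1:**
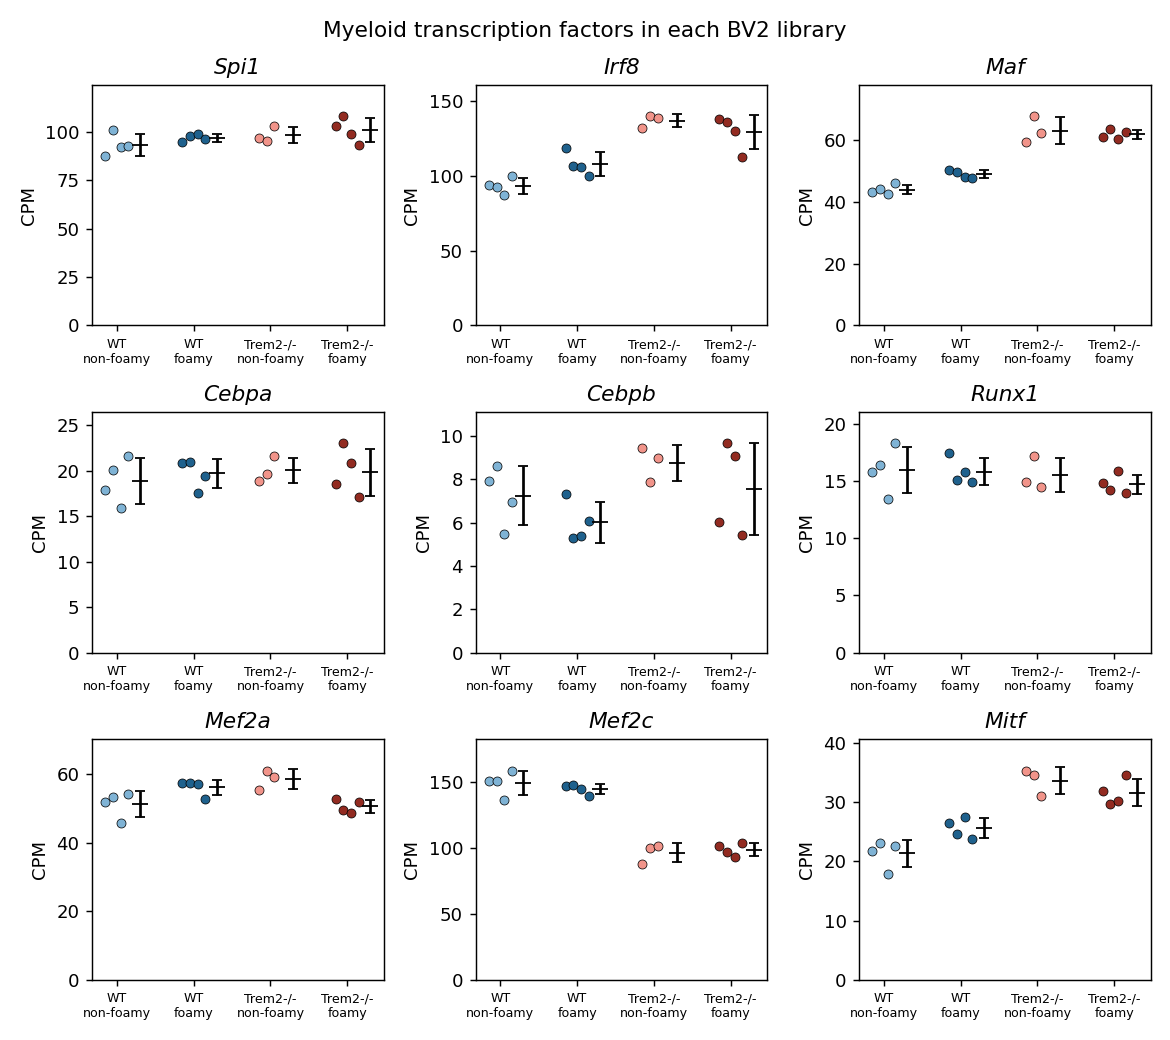
CPM (TMM normalization, linear axis from 0) of the 9 factors in each library, by group, with the mean and SD of each group beside the points. Irf8, Maf and Mitf are higher and Mef2c is lower in Trem2-/- than in WT non-foamy cells with no overlap, whereas Spi1, Cebpa and Runx1 overlap in all groups.

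In foamy cells 4 of the 9 factors passed the test between genotypes, with Irf8, Maf and Mitf higher and Mef2c lower. Of all genes tested, 30.2% passed in that comparison and 28.8% did not overlap. These were the factors described above, apart from Mef2a, and 4 of the 9 did not overlap, Mef2a in place of Irf8. The foamy and non-foamy comparisons have no library in common, and for Irf8, Maf and Mitf the fitted differences were 0.26, 0.34 and 0.30 with cholesterol and 0.55, 0.52 and 0.65 without it, a difference that did not pass the test between the responses. For Mef2c they were -0.55 and -0.63. The median of the 9 in foamy cells was 0.06, against 0.00031 for all genes.

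The study asked how cholesterol loading changes gene expression in each genotype. None of the 9 factors passed the test for a response to cholesterol in WT cells (2.8% of all genes did, 1.66% higher and 1.14% lower; the count was 0 with DESeq2 too), and 4 had an unadjusted p under 0.05 in edgeR, as did 16.4% of all genes. Irf8, Maf and Mitf were higher in all 4 WT foamy than in all 4 WT non-foamy libraries, with the closest pair of Irf8 libraries both at 100 CPM after rounding. The fitted changes were 0.21 (interval 0.06 to 0.36, adjusted p 0.107 in edgeR), 0.16 (interval 0.03 to 0.28, adjusted p 0.146 in edgeR) and 0.26 (interval 0.07 to 0.45, adjusted p 0.106 in edgeR). The share of all genes without overlap in this comparison was 9.7%. The median response of the 9 was 0.06, against 0.01 for all genes. The value for Mef2a was 0.13 (interval -0.01 to 0.27) and that for Cebpb -0.27 (interval -0.65 to 0.1).

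In Trem2-/- cells none of the 9 factors passed the test for a response to cholesterol, with 1 at an unadjusted p under 0.05 in edgeR (6.44% of all genes), and 0.14% of all genes passed, 0.105% higher and 0.0351% lower. DESeq2 gave 0 of the 9 as well. The 1 factor was Mef2a, which was lower in all 4 foamy than in all 3 non-foamy Trem2-/- libraries, with a log2 change of -0.21 (interval -0.36 to -0.06, adjusted p 0.543 in edgeR). Of all genes tested, 9.26% did not overlap here. The median response of the 9 was -0.07, against 0.00451 for all genes. The fitted responses of Irf8, Maf and Mitf were -0.08, -0.03 and -0.09 with adjusted p-values of 0.904, 0.975 and 0.911 in edgeR.

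The test of the difference between the responses of the genotypes gave a call for Mef2a, and 3.63% of all genes tested passed, 1.99% higher and 1.64% lower. The response of Mef2a in Trem2-/- cells minus that in WT cells was -0.34 ± 0.0916 (log2, SE; interval -0.54 to -0.14; adjusted p 0.0416 in edgeR). Its values run from 45.9 to 54.3 CPM in WT non-foamy to 52.9 to 57.5 CPM in WT foamy libraries, and from 55.4 to 61.1 CPM in Trem2-/- non-foamy to 48.7 to 52.7 CPM in Trem2-/- foamy libraries. The call held in 4 of the 15 fits that each left out 1 library, namely those without WT non-foamy replicate 2 or 4, WT foamy replicate 4 or Trem2-/- foamy replicate 4, and the adjusted p was at most 0.125 in the others. For Irf8 the difference was -0.29 (interval -0.51 to -0.07; adjusted p 0.115 in edgeR), for Mitf -0.35 (interval -0.63 to -0.08; adjusted p 0.123 in edgeR) and for Maf -0.18 (adjusted p 0.249 in edgeR), so that these did not pass.

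**Figure D2:**
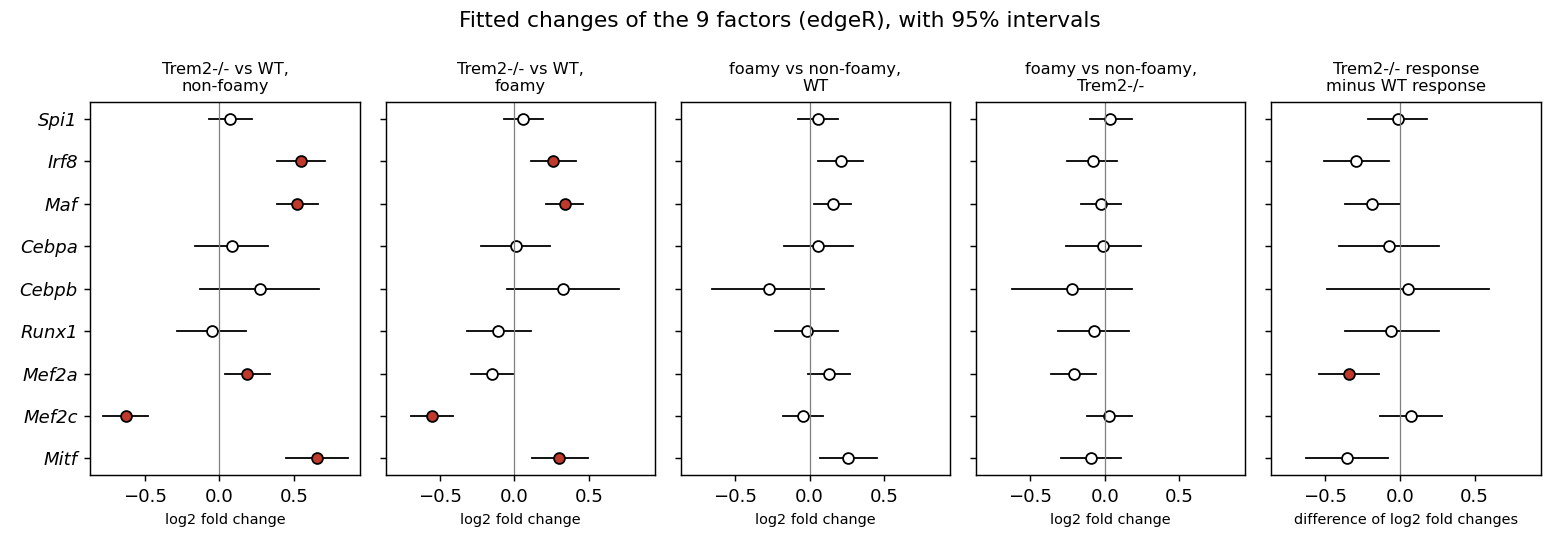
Fitted log2 fold changes (points) with 95% intervals (lines) of the 9 factors in the 4 comparisons and in the difference of the responses, from edgeR over all 15 libraries, with filled points for an adjusted p under 0.05. Filled points are found for 5 factors in non-foamy cells, 4 in foamy cells, none in either cholesterol response and Mef2a in the difference.

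Levels of 2 factors within a library can be compared through their log2 ratio of counts, which does not depend on how the libraries are scaled. MEF2A and MEF2C bind the same sites as dimers, PU.1 pairs with IRF8, and C/EBPα and C/EBPβ bind the same sites. The ratio of Mef2a to Mef2c was -1.55 ± 0.03 in WT non-foamy (SD, n = 4), -1.37 ± 0.02 in WT foamy (SD, n = 4), -0.72 ± 0.06 in Trem2-/- non-foamy (SD, n = 3) and -0.96 ± 0.03 in Trem2-/- foamy cells (SD, n = 4). The 4 groups did not overlap, since the ranges were -1.57 to -1.51, -1.4 to -1.34, -0.79 to -0.67 and -1.01 to -0.94. The Trem2-/- cells exceeded WT by 0.61 on average over the conditions (exact permutation test within condition, two-sided, 2450 permutations, p = 0.000408, the smallest these permutations can give, adjusted p 0.00327 over the 8 tests made on ratios). Cholesterol moved the ratio by 0.18 in WT and by -0.24 in Trem2-/- cells.

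The ratio of Spi1 to Irf8 was lower in Trem2-/- cells by a log2 difference of -0.34 (exact permutation test, p = 0.00122, adjusted p 0.00327), with Spi1 similar and Irf8 higher. The ratio of Cebpa to Cebpb did not pass for genotype (-0.24, exact permutation test, p = 0.0441, adjusted p 0.0705) or for cholesterol (0.28, exact permutation test, p = 0.0286, adjusted p 0.0571). The cholesterol effects on the Mef2a to Mef2c and Spi1 to Irf8 ratios had adjusted p-values of 0.73 and 0.817 in the same exact permutation test. That test averages the effect over the genotypes. The effects were 0.18 in WT and -0.24 in Trem2-/- cells for Mef2a to Mef2c, and -0.15 and 0.12 for Spi1 to Irf8. Opposite effects cancel in the average, so the test cannot show whether cholesterol moved these ratios within a genotype.

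**Figure D3:**
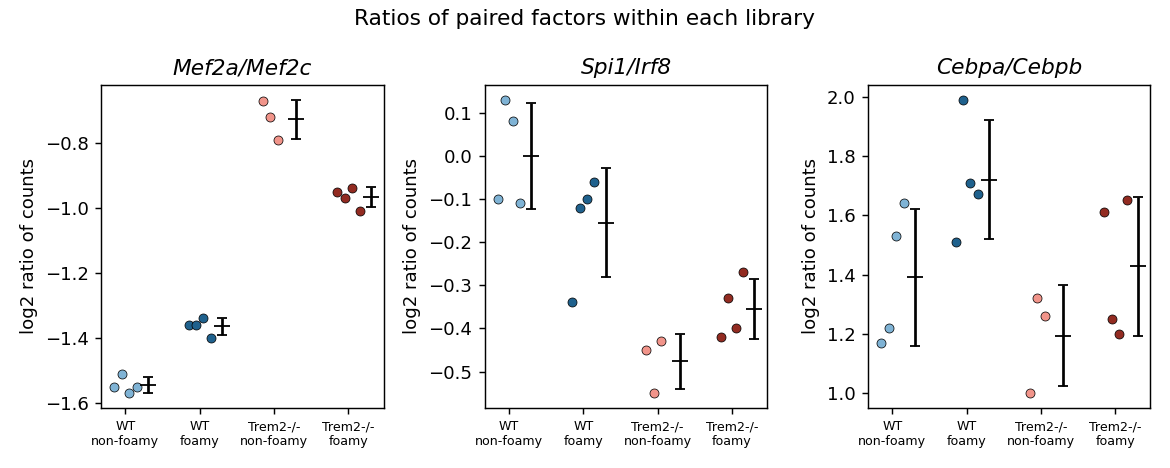
Log2 ratio of the counts of paired factors in each library, with the mean and SD of each group; each panel has its own axis, which does not start at 0. The Mef2a/Mef2c ratio separates all 4 groups, with ranges of -1.57 to -1.51, -1.4 to -1.34, -0.79 to -0.67 and -1.01 to -0.94.

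Other members of the same families were called about as often as genes in general. Of 30 listed relatives 27 were tested. In Trem2-/- non-foamy cells 6 were higher and 5 lower, where 21% of all genes tested were called higher and 22.6% lower, with a median log2 change of 0.08. In foamy cells 5 were higher and 3 lower, where 14.3% of all genes were called higher and 15.9% lower, with a median of -0.05; without WT foamy replicate 1 or Trem2-/- foamy replicate 4 the 8 foamy calls became 5. Tfeb, the relative of Mitf that drives lysosome genes, rose from 9.61 to 16.9 CPM on average in non-foamy cells (log2 0.81, adjusted p 5.72e-07 in edgeR) and was 0.40 higher in foamy cells (adjusted p 0.0018 in edgeR). Irf1, an interferon response factor, was 0.64 higher in non-foamy and 0.51 higher in foamy cells (adjusted p 1.49e-05 and 0.000167 in edgeR), whereas Ets2 and Cebpd were lower in non-foamy cells by log2 changes of -0.73 and -1.33 (adjusted p 0.00576 and 0.00155 in edgeR). Spic, a PU.1 relative that marks red pulp macrophages, was picked out after its values were seen. It had 0 counts in all WT libraries and between 0.0633 and 0.529 CPM in the Trem2-/- libraries, with at most 16 counts in a library.

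Among 25 other factors of blood and macrophage cells, 18 were tested. In Trem2-/- non-foamy cells 7 were higher and 3 lower (21% and 22.6% of all genes). The repressors Bhlhe40 and Bhlhe41, which sustain macrophage self-renewal, were 0.82 and 0.79 higher (adjusted p 1.89e-09 and 6.41e-09 in edgeR). Zeb2, which maintains the identity of tissue macrophages, was 0.61 higher (adjusted p 7.47e-08 in edgeR) and Batf3, a dendritic cell factor, was lower by a log2 change of -0.66 (adjusted p 8.86e-05 in edgeR). In foamy cells 5 were higher and 3 lower (14.3% and 15.9% of all genes). For cholesterol in WT cells, 3 were higher (1.66% of all genes), Id2 at 0.41, Bhlhe41 at 0.28 and Zeb2 at 0.23 (adjusted p 0.00391, 0.0232 and 0.0433 in edgeR), and without WT foamy replicate 1 or replicate 2 the number was 1. The call of Zeb2 held in 1 of the 8 fits that left out a WT library, the one without WT foamy replicate 4 (adjusted p up to 0.144 in the others in edgeR), and that of Bhlhe41 in 6 of 8 (adjusted p up to 0.0836 in edgeR), while that of Id2 held in all 8.

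Partners and regulators of the 9 proteins were also followed, with 18 of 21 tested. In Trem2-/- non-foamy cells 6 were higher and 6 lower (21% and 22.6% of all genes), and in foamy cells 6 were higher and 7 lower (14.3% and 15.9% of all genes). Fnip2, which with folliculin holds MITF family proteins in the cytoplasm, had the largest rise at 1.02 (adjusted p 2.8e-09 in edgeR), and its partner genes Flcn, Fnip1, Rragc and Rragd were higher by 0.45, 0.66, 0.60 and 0.52 (adjusted p 3.49e-05, 7.61e-08, 1.47e-07 and 8.01e-07 in edgeR). Ddit3, a C/EBP relative of the stress response that blocks C/EBP dimers, was 0.998 higher (adjusted p 3.16e-06 in edgeR). Cbfb, the subunit that stabilizes RUNX1 on DNA, was lower by a log2 change of -0.62 (adjusted p 2.99e-07 in edgeR), from 87 to 56.7 CPM on average, while Runx1 was not different. Hdac4 and Hdac9, which repress MEF2 proteins, were lower by log2 changes of -0.82 and -0.51 (adjusted p 0.000478 and 0.00069 in edgeR). Of the other Hdac genes listed, Hdac5 was at 46.7 CPM in WT and 46.5 CPM in Trem2-/- non-foamy cells on average. Hdac7 was at 2.14 and 1.58 CPM in the same groups. Trib1, which leads to C/EBPα breakdown, was at 2.36 CPM in WT and 1.28 CPM in Trem2-/- cells on average. Its log2 change was -0.89 (adjusted p 0.0242 in edgeR). That call missed the threshold without WT non-foamy replicate 2 or Trem2-/- non-foamy replicate 2 or 3 (adjusted p up to 0.073 in edgeR). The genes Flcn, Fnip1, Rragc, Rragd, Cbfb, Hdac5, Hdac7 and Hdac9 in this paragraph were picked after their values were seen.

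In most lists of known targets of the factors more genes were called higher than lower in Trem2-/- cells. Of 14 MITF and TFE targets, all tested, 13 were higher in Trem2-/- than in WT non-foamy cells (median 0.65; 21% of all genes tested were called higher) and 10 in foamy cells (median 0.31; 14.3% of all genes). The largest changes were those of Acp5, an acid phosphatase of osteoclasts (2.62; adjusted p 3.46e-12 in edgeR), Atp6v0d2, a subunit of the proton pump (1.83; adjusted p 6.55e-13 in edgeR), Ctsk, a protease of bone resorption (1.13; adjusted p 7.04e-11 in edgeR), and Gpnmb, a lysosomal membrane glycoprotein (0.96; adjusted p 5.91e-09 in edgeR). Gpnmb rose from 3840 to 7450 CPM on average and Ctsk from 2840 to 6220. With scaling by total counts alone, 6 of the 14 were called higher in foamy cells. Of all 14237 genes tested, 1115 were called higher under that scaling, against 2036 in the reported fit. The osteoclast marker list, which shares Acp5, Ctsk and Oscar with these targets, summed to 2700 to 3770 CPM in WT and 5450 to 6530 CPM in Trem2-/- libraries, almost wholly from Ctsk. Of its other members, Acp5 was higher, as given above, Ocstamp was at 15.9 CPM in WT and 16.4 CPM in Trem2-/- non-foamy cells on average, Oscar was not called, Calcr was at 0 in every library and Dcstamp, needed for osteoclast fusion, was at 4.69 CPM in WT and 1.88 CPM in Trem2-/- cells. Whether the members of this list follow MITF was not tested.

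In WT cells 5 of the 14 MITF and TFE targets rose with cholesterol (median 0.25; 1.66% of all genes), among them Atp6v0d2 at 0.51, Gpnmb at 0.40, Ctsk at 0.31 and Clcn7, a lysosomal chloride transporter, at 0.30 (adjusted p 0.00123, 0.00611, 0.0169 and 0.0401 in edgeR). In Trem2-/- cells 0 did in edgeR (median -0.12; 0.105% of all genes), with 3 at an unadjusted p under 0.05 (6.44% of all genes). With DESeq2 0 did as well, where 37 of all genes were called higher. With so few calls over all genes, 0 of 14 does not show that the targets failed to respond. The difference of the responses was called for 6, all lower in Trem2-/- cells (median -0.34; 1.64% of all genes were called lower), with Atp6v0d2 at -0.73 and Gpnmb at -0.64 (adjusted p 0.00122 and 0.00311 in edgeR). Of the calls in WT cells, those of Atp6v0d2 and Gpnmb held in all 8 fits that left out a WT library, that of Ctsk in 3 and that of Clcn7 in 2. These counts were sensitive to single libraries and to the method. Over all genes, DESeq2 called 832 in the WT response and 940 for the difference, against 399 and 517 in edgeR. The 5 became 2 without WT non-foamy replicate 1 or 4 or WT foamy replicate 2, 3 without WT foamy replicate 3, 1 with only the libraries compared and 8 with DESeq2, and the 6 became 3 without WT foamy replicate 2 or Trem2-/- non-foamy replicate 2, 2 without Trem2-/- non-foamy replicate 1 and 8 with DESeq2.

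Of 13 PU.1 targets, 8 were higher and 2 lower in Trem2-/- non-foamy cells (median 0.38; 21% and 22.6% of all genes) and 6 higher and 1 lower in foamy cells (median 0.18; 14.3% and 15.9% of all genes), although Spi1 itself did not pass. The Fc receptor gene Fcgr3 was higher by 0.77 (adjusted p 3.21e-08 in edgeR), the macrophage antigen Adgre1 by 0.62 (adjusted p 2.59e-08 in edgeR) and the LPS co-receptor Cd14 lower by a log2 change of -0.87 (adjusted p 5.42e-11 in edgeR). Of 9 listed IRF8 targets 8 were tested, since Il12b had too few counts. Of the 8 tested, 5 were higher and 2 lower in non-foamy cells (21% and 22.6% of all genes) and 5 higher and 1 lower in foamy cells (14.3% and 15.9% of all genes). Cd74, the invariant chain, was at 0.89 and 0.96 (adjusted p 4.48e-10 and 1.76e-10 in edgeR). Of 10 listed c-MAF targets 7 were tested, since Cd163, Il10 and Lyve1 had too few counts. Of the 7 tested, 5 were higher and none lower in both conditions (21% of all genes were higher in non-foamy and 14.3% in foamy cells). Mrc1, the mannose receptor, was at 1.94 and 1.69 (adjusted p 1.69e-16 and 8.56e-16 in edgeR), from 38.9 to 149 CPM on average in non-foamy cells. Complement gene C1qb was at 0.84 and 1.02 (adjusted p 2.1e-07 and 1.37e-08 in edgeR).

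Of 12 listed C/EBP targets 8 were tested, since Mpo, Il6, Retnla and Chil3 had too few counts. Of the 8 tested, 4 were higher and 1 lower in non-foamy (21% and 22.6% of all genes) and 3 higher and 1 lower in foamy cells (14.3% and 15.9% of all genes). Arg1, which makes ornithine from arginine, was higher by 2.83 and 3.29 (adjusted p 4.18e-18 and 8.69e-20 in edgeR), at 16.4 CPM in WT and 116 CPM in Trem2-/- non-foamy cells on average. For RUNX1, 3 of 5 listed targets were tested, and 2 were higher in both conditions (21% and 14.3% of all genes), namely Cd4 and the colony-stimulating factor receptor gene Csf1r. The latter was at 0.61 and 0.31 (adjusted p 8.85e-06 and 0.00691 in edgeR). With total counts alone 1 of these targets was called in foamy cells, where 1115 genes were called higher (2036 in the reported fit). Of the 4 listed MEF2 targets, Klf2, Klf4, Nr4a1 and Jun, 0 passed in edgeR or DESeq2 in any comparison and 0 had an unadjusted p under 0.05 in edgeR. Between genotypes, 43.6% of all genes tested passed in non-foamy and 30.2% in foamy cells in edgeR. Klf2, Klf4 and Nr4a1 were low, at 1.07, 2.03 and 2.16 CPM on average in WT non-foamy cells, where a change is harder to detect. Jun was at 30.4 CPM in that group. The targets of several factors share genes, such as Cybb, Cd14, Csf3r and Csf1r. Each list was assembled from textbook knowledge, but with earlier results of these data known, so the counts of called targets are not independent of these data.

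**Figure D4:**
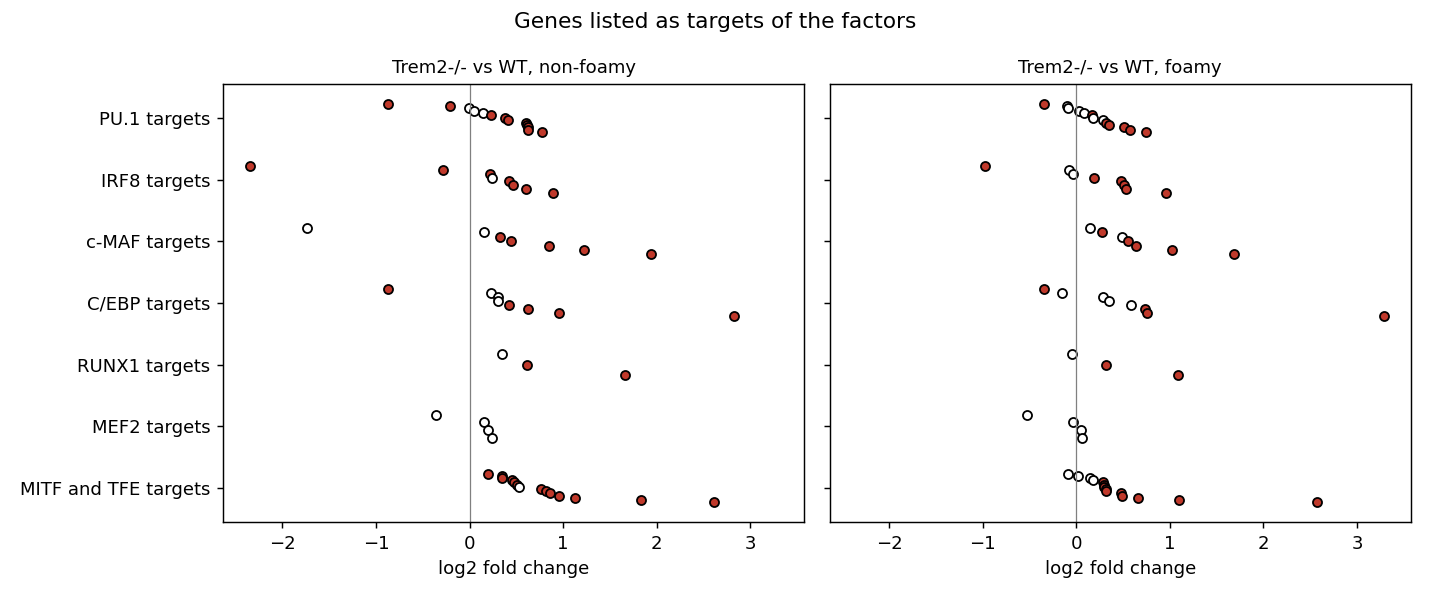
Fitted log2 fold changes of the genes in each target list, Trem2-/- against WT, in non-foamy (left) and foamy (right) cells, with 1 point for each tested gene and filled points for an adjusted p under 0.05 in edgeR. Of the 14 MITF and TFE targets 13 are filled and higher on the left and 10 on the right, and none of the 4 MEF2 targets is filled.

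The genes with the most similar profile were sought for the 5 factors that passed a test, as the smallest root mean square difference of centred log2 CPM over the 15 libraries among 11707 candidate genes. For Mef2c these were Atad2 (0.0456), Hif1a (0.0672) and Wdhd1 (0.0683), with Atad2 at 153 and 151 CPM on average in WT non-foamy and foamy cells and at 101 CPM in both groups of Trem2-/- cells. For Irf8 they were Slc35f6 (0.0611), Bcl2l11 (0.0633) and Anxa6 (0.0642), for Maf Scpep1 (0.0558), Sord (0.0564) and Lamp1 (0.0581), for Mitf Impact (0.0641), Lacc1 (0.0657) and Dnajb14 (0.0658), and for Mef2a Larp4b (0.0531), Rab10 (0.0588) and Esyt2 (0.0626). All points of such a profile share the libraries, so that likeness describes these libraries alone.

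Library WT non-foamy replicate 3, with the lowest total count, was the lowest of its group for 8 of the 9 factors, and WT foamy replicate 4 for 6 of them. The share over all genes was not examined. A chi-square per gene measured how far the counts of 2 libraries differed beyond their totals. It was 31.1, 33.2 and 40.1 between WT non-foamy replicate 3 and replicates 1, 2 and 4. Among those other replicates it ran from 6.36 to 7.58, and among WT foamy libraries from 8.38 to 45.2. Without WT non-foamy replicate 3 the calls of Irf8, Maf, Mitf and Mef2c between non-foamy genotypes remained.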

How the data were processed

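RNA was isolated from BV2 cells lysed in the plate, libraries were made with a TruSeq RNA kit and sequenced on a NovaSeq instrument. The deposited tables hold raw counts per gene and library, which the authors obtained with Trimmomatic, HISAT2 and featureCounts on GRCm38 (mm10 in the submitters' processing notes); whether counting used strand or multiply mapped reads is not given in the sources used here. Groups were taken from the sample labels. Counts were analysed in R 4.3.3 with edgeR 4.0.16: genes were kept by filterByExpr with a count minimum of 10 (14237 genes, 99.97% of counts), normalized by TMM (factors 0.918 to 1.11) and tested by quasi-likelihood over all 15 libraries with a term for each group, Benjamini-Hochberg adjustment over all genes tested and a threshold of 0.05. The biological coefficient of variation was 10.2%. Tests on simulated data for the non-foamy genotype comparison called 100% of log2 changes of 1 and 70% of changes of 0.5, with 3.95% of calls false. There, 100 genes above 1 CPM were changed at each size among 14237, with a single dispersion for all genes. In the measured comparison 43.6% of genes passed, so these shares need not hold for it. DESeq2 1.42.0, other scalings and filters, a replicate block and leaving out each library were tried as alternatives. Gene positions were taken from GENCODE M21, another release than the authors used. The 9 factors and all gene lists were chosen with earlier results of these data known. Named genes were the 9 factors, Trem2, at most 4 called genes of each list with the largest change and a mean of at least 1 CPM, the highest or near-zero markers, and the 3 nearest profiles of each called factor. Some results under this rule, with 1 of 4 ratios, are not reported here. Figures were drawn with matplotlib 3.10.9. The 9 factors had at least 125 counts in every library, and counting error adds most to the spread of the lowest of them, Cebpb.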

Additional observations from a re-analysis of the deposited data

Results flagged for a closer look

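Mef2a in WT foamy replicate 4 stood apart from its group, at 52.9 CPM against 57.1 to 57.5 CPM in the other 3 libraries, a gap of 0.901 of the group's range, above the limit of Dixon's test for 4 libraries. It was the 1 such library among 39 groups of values examined, and chance flags about 1 group in 20.

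For several genes the response to cholesterol differed between genotypes in edgeR's test of the difference, given here as the log2 response in Trem2-/- cells minus that in WT cells. Among the 9 factors this was Mef2a at -0.34. Among other factors and partners it was Bhlhe40 at -0.46, Bhlhe41 at -0.56, Id2 at -0.74, Klf6 at -0.33 and Fnip2 at -0.58. Among targets it was F13a1 at -0.59, Atp6v0d2 at -0.73, Ctsk at -0.47 and Gpnmb at -0.64, and, in the other direction, Cd14 at 0.52 and Arg1 at 0.46. The call of Klf6 held in 7 of the 15 fits that each left out 1 library and missed the threshold without WT non-foamy replicate 1, WT foamy replicate 2, any of the Trem2-/- non-foamy replicates or Trem2-/- foamy replicate 1, 2 or 3 (adjusted p up to 0.096 in edgeR). That of Ctsk held in 14 of 15, missing without Trem2-/- non-foamy replicate 1 (adjusted p 0.0517 in edgeR). The log2 ratio of Mef2a to Mef2c moved up with cholesterol in WT and down in Trem2-/- cells, a difference of -0.42 that was not tested.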

How the results depend on the processing

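Irf8, Maf, Mitf and Mef2c in non-foamy cells and Maf and Mef2c in foamy cells passed the test under every alternative with a single exception. That exception required a change beyond 0.5 on the log2 scale. Under it 0 of the 9 factors passed in non-foamy cells, 0 in foamy cells and 0 for the difference of the responses. Of all 14237 genes tested, 1260, 357 and 15 passed under it in the same order. Without single libraries, 4 to 5 factors passed in non-foamy cells and 4 in foamy cells. For the difference of the responses, 0 passed with total counts alone, with no filter on low counts and with the replicate block, and 0 to 1 without single libraries. No direction of a called factor reversed. Scaling by total counts alone moved the median of all genes to -0.125 in non-foamy and -0.129 in foamy cells, with 1820 genes higher and 4379 lower (2985 and 3222 in the reported fit) and 1115 higher and 3666 lower (2036 and 2261). Under that scaling, Mef2a passed in foamy cells (-0.28, adjusted p 0.00898 in edgeR) and Irf8 and Mitf in foamy and Mef2a in non-foamy cells did not; Spi1 and Cebpa, which passed nowhere, changed sign. Mef2a in non-foamy cells also missed the threshold with no filter (adjusted p 0.0933 in edgeR) and with only the libraries compared (0.0554 in edgeR). The cholesterol effect on the Cebpa to Cebpb ratio ran from 0.23 to 0.32 without single libraries and passed without WT non-foamy replicate 4, WT foamy replicate 1, Trem2-/- non-foamy replicate 2 or Trem2-/- foamy replicate 3. The TMM factors, which scaling by total counts leaves out, were 0.966 to 1.11 in WT and 0.918 to 0.983 in Trem2-/- libraries. The cause of the changes between settings was not tested.

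Counts over all genes differed by more than 1.5 times between settings. The WT response had 399 in the reported fit, 832 with DESeq2, 607 with no filter and 144 with only the libraries compared. The Trem2-/- response had 20, 55 with DESeq2 and 61 with no filter. The difference had 517, 940 with DESeq2 and 294 with the replicate block. A required change beyond 0.5 on the log2 scale gave 4, 0 and 15 for these. Under it the genotype comparisons fell to 1260 in non-foamy and 357 in foamy cells (6207 and 4297 in the reported fit). Leaving out 1 library gave 146 (WT foamy replicate 2) to 526 (WT foamy replicate 4) for the WT response, 10 (Trem2-/- non-foamy replicate 1) to 18 (Trem2-/- foamy replicate 2) for the Trem2-/- response and 201 (Trem2-/- non-foamy replicate 1) to 663 (WT foamy replicate 4) for the difference. Same-numbered libraries did not in general deviate together. Of 21 such pairs, 5 had a correlation over 0.1, and 5 of 15 libraries correlated best with their own number. Between WT non-foamy and WT foamy cells the same-numbered pairs had 0.196, 0.128, 0.452 and -0.143 for replicates 1 to 4. The value of 0.452 was the highest of all pairs. Pairs with different numbers ran from -0.547 to 0.413. With the replicate block the Mef2a difference was -0.34 with an adjusted p of 0.0679 in edgeR.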
